A study of Rattus norvegicus with 3 samples.

Results

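The genes described here are 9 regulators and products of mineralising tissue, chosen by name: Enpp1, Ankh, Alpl, Mgp, Tnfrsf11b, Bglap, Ibsp, Runx2 and Sox9. They were looked up on arrays of rat common carotid artery through the RefSeq accession that each probe carries. A probe was matched for 7 of the 9 genes, out of 13833 genes on the older of the 2 array designs used. Runx2 and Sox9, the transcription factors that direct bone and cartilage formation, had no matched probe and were not analysed here. The 7 matched genes were well above background on every array that held a probe for them, so none was lost to a filter on dim signals.

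RNA came from whole common carotid arteries of male Wistar rats, with 1 array for each of 3 groups: uninjured, 7 days after balloon injury and 21 days after balloon injury. Balloon injury strips the endothelium with an inflated catheter and stretches the wall. The design text speaks of a repeat experiment in different rats at each time, which was not analysed here. With 1 array a group there were no replicates and no test was possible, so each difference below is a difference between 2 arrays, without a p-value. In whole tissue, fewer cells of a type and less RNA per cell cannot be told apart.

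Mineral deposition in an artery depends on the balance of inorganic pyrophosphate, which blocks the growth of hydroxyapatite crystals, and phosphate, which feeds it. The ectoenzyme ENPP1 makes pyrophosphate from ATP, the membrane protein ANKH raises the amount of it outside the cell, and tissue-nonspecific alkaline phosphatase, the product of Alpl, breaks it down. Matrix Gla protein (Mgp) is a vitamin K-dependent inhibitor of calcification made by smooth muscle cells and chondrocytes, and mice that lack it calcify their arteries. Osteoprotegerin (Tnfrsf11b) is a soluble decoy receptor for RANK ligand, the main signal for osteoclast formation, and osteocalcin (Bglap) and bone sialoprotein (Ibsp) are matrix proteins of bone.

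The promoters of Ankh and Alpl are shown because these genes act on opposite sides of the pyrophosphate balance and differed in opposite directions at day 21, and that of Bglap because its ratio differed in sign between the injured arteries. Each is 300 bases, from 250 bases before the annotated start to 50 after it, from RefSeq on the GRCr8 assembly, on the strand of the gene. A promoter was found for 4 of the 7 matched genes. Capitals mark 3 motifs searched on both strands: the RUNX core ACCACA, the GC box GGGCGG and the TATA box TATAAA.
Ankh, chr2:79883201-79883500, plus strand: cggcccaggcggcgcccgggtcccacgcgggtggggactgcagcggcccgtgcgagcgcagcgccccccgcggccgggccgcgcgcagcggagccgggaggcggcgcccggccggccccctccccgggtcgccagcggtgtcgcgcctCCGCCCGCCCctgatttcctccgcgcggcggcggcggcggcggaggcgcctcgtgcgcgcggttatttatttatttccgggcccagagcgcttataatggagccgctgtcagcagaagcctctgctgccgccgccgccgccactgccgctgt
Alpl, chr5:155289736-155290035, minus strand: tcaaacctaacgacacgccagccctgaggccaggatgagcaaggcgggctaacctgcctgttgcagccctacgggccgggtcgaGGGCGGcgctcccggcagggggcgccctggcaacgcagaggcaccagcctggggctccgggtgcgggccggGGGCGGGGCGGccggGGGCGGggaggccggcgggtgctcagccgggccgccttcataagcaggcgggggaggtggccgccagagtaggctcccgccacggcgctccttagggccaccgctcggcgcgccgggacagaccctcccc
Bglap, chr2:176137269-176137568, minus strand: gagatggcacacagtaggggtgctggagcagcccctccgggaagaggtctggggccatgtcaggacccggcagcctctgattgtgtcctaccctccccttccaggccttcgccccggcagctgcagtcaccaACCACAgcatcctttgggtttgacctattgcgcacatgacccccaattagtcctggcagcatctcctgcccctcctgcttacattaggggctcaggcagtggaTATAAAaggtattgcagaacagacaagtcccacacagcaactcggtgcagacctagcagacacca

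The Alpl window held 4 GC boxes, of which 2 overlap, and the Ankh window held 2 overlapping ones on the opposite strand. The Bglap window had no GC box, but a RUNX core that begins 118 bases before the start and a TATA box that begins 15 bases before it. The Ibsp window, not printed, held a TATA box on the opposite strand and neither of the other motifs. The GC content was 78.3% for Ankh, 76.3% for Alpl, 58.3% for Bglap and 51.0% for Ibsp, where the median of all promoters was 51.7%. Of 33469 promoter windows of this length, 17.3% held the RUNX core, 33.1% the GC box and 14.2% the TATA box. These matches describe the letters of the windows and say nothing of binding in these arteries.

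Levels are given as the scanner's processed signal in intensity units and as the scaled signal, the log2 signal minus the array's 75th percentile over the probes compared. The day 7 array was of another design, scan and software release than the other arrays, so day 7 and these factors cannot be told apart. Comparisons with day 7 used the 10583 unflagged probes that all 3 arrays share, which hold 6 of the 7 matched genes. The comparison of day 21 with uninjured used the 40989 unflagged probes of their common design. The authors' deposited table also lists values for the uninjured and day 21 arteries at 3957 of its 9260 probes that these 2 scanner files do not hold, so whether the table was made from the same arrays was not settled. Over the 5294 probes that the table and all 3 scanner files hold, each table column correlated best with the scanner file of its own group (Pearson r across probes 0.947 uninjured, 0.977 at day 7 and 0.951 at day 21), and with the files of other groups at 0.870 or less. Between 59.8% and 76.5% of the probes of an array were well above background, and no spot was saturated. The value after ± is the SD of a log2 ratio, a technical spread that holds nothing of the spread between animals. Where a probe had enough replicate spots it comes from these, among the matched genes for Enpp1 alone. The other matched genes have 1 spot per probe and array. For these, and for list genes with few spots, the SD was taken from replicated probes of similar signal on each array. It was then not measured on the probe itself. Among all genes past 2-fold, the share that was higher than in the uninjured artery was 49.6% at day 7 and 39.9% at day 21, and with scaling on the median it was 26.2% at day 7 and 77.1% at day 21.

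Enpp1 was higher in both injured arteries than in the uninjured one and Ankh was higher at day 21, while Alpl and Tnfrsf11b were lower at both times. At day 7, 2 of the 6 genes measured were at least 2-fold higher than in the uninjured artery, against 16.1% of all 5243 genes measured, and 3 were at least 2-fold lower, against 16.3%. At day 21, 2 of 7 were at least 2-fold higher, against 9.11% of 9420 genes, and 3 were at least 2-fold lower, against 13.7%. The median log2 ratio of the genes was -0.62 at day 7 and -0.87 at day 21, where that of all genes was -0.01 and -0.20. Both comparisons share the uninjured array.

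**Figure D1:**
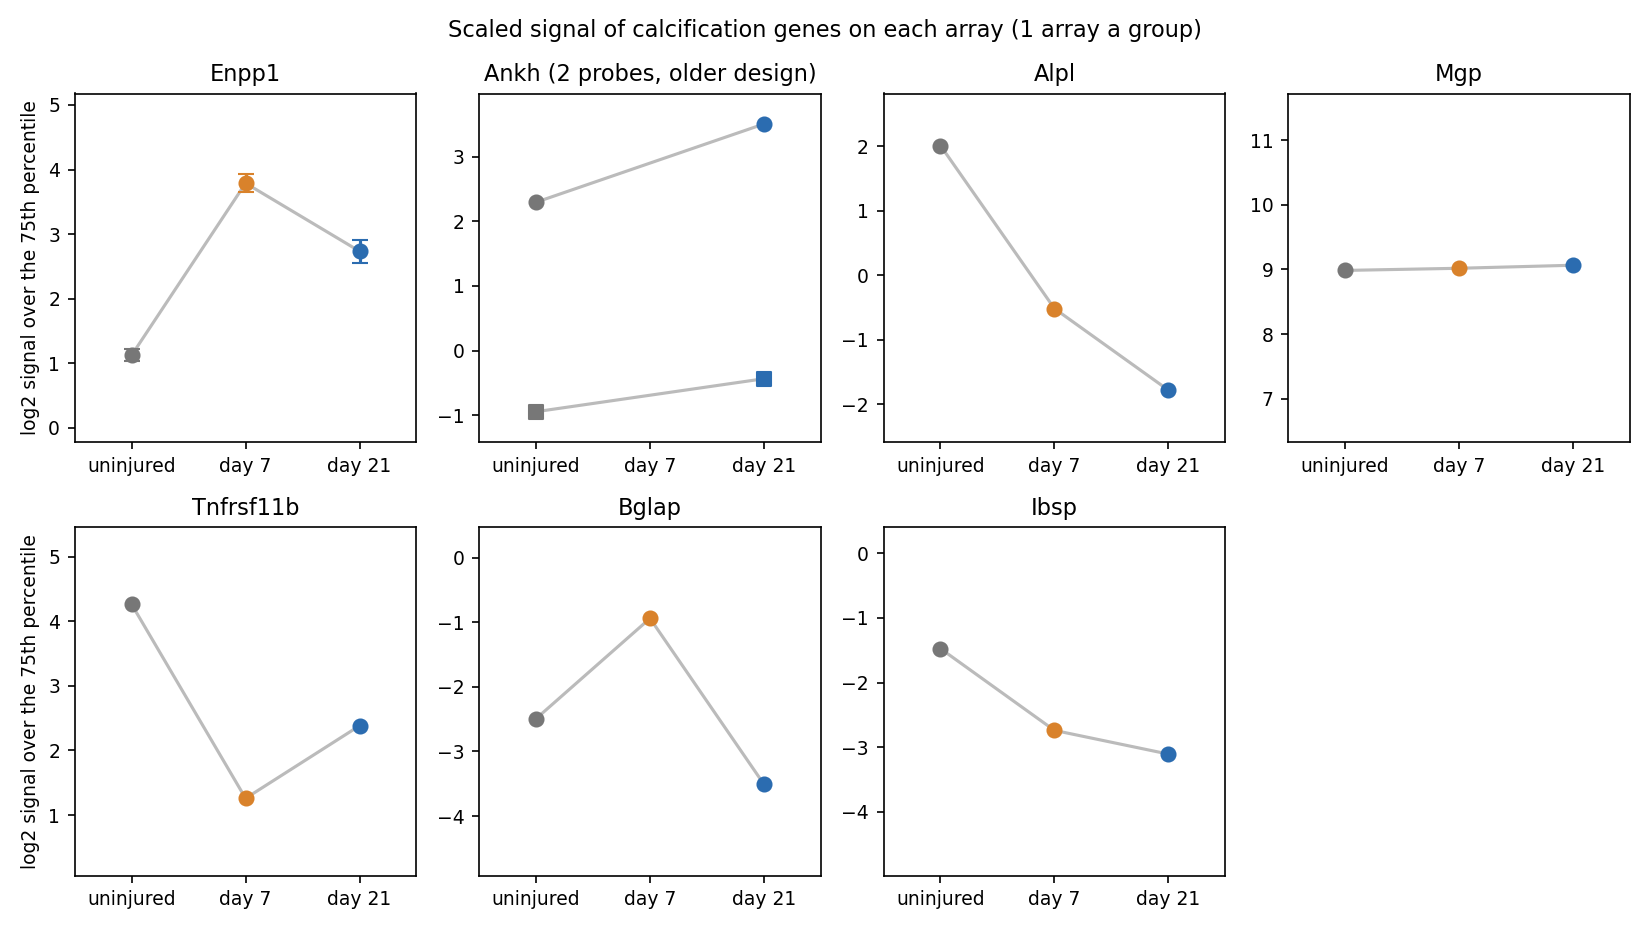
Scaled signal (log2 signal over the 75th percentile of the array) of the 7 matched genes on the uninjured, day 7 and day 21 arrays, 1 point per array, with all panels spanning the same number of log2 units. Bars on Enpp1 are the SD of its 10 spots per array, and the Ankh panel shows a brighter probe (circles) and a dimmer one (squares) that the day 7 array did not hold. Enpp1 was highest at day 7, at 3.79, Alpl was lowest at day 21, at -1.78, and Mgp lay between 8.99 and 9.07 on all 3 arrays.

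Enpp1 had the most precise measurement, since its probe was spotted 10 times on each array. Its signal was 277 intensity units on the uninjured array, 3183 units on the day 7 array and 2553 units on the day 21 array. Single spots ran between 234 and 289 units on the uninjured array, between 2710 and 3466 units on the day 7 array and between 1831 and 2834 units on the day 21 array. The spots of both injured arteries thus lay above all those of the uninjured artery, and those of day 7 and day 21 overlapped before scaling. Scaled, Enpp1 was 6.34-fold higher at day 7 than in the uninjured artery (log2 ratio 2.66 ± 0.05) and 3.38-fold higher at day 21 (1.76 ± 0.06). A higher ratio than that of Enpp1 was found for 1.93% of all genes measured at day 7 and for 4.27% at day 21. Under 10 other ways of processing (another background correction, scaling, probe choice, filter or the deposited table) the log2 ratio lay between 1.44 and 2.93 at day 7 and between 1.61 and 2.24 at day 21.

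Ankh could be compared between day 21 and uninjured alone, because its probes differ between the designs. Its brighter probe gave 1538 intensity units at day 21 and 243 units in the uninjured artery, and its dimmer probe gave 99.8 units at day 21 and 25.7 units in the uninjured artery. Both probes were higher at day 21, to unequal degree. After scaling the brighter one was 2.32-fold higher (log2 ratio 1.21 ± 0.15) and the dimmer one 1.42-fold higher (0.51 ± 0.22). The mean of both gave a log2 ratio of 0.86, so a difference of 2-fold rests on the brighter probe.

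Alpl differed in the other direction. Its probe gave 511 intensity units in the uninjured artery, 161 units at day 7 and 112 units at day 21, so the injured arteries were lower even before scaling. Scaled, it was 5.75-fold lower at day 7 than in the uninjured artery (log2 ratio -2.52 ± 0.12) and 12.5-fold lower at day 21 (-3.64 ± 0.15). A lower ratio than that of Alpl was found for 1.66% of all genes measured at day 7 and for 0.117% at day 21. Under the other ways of processing its log2 ratio lay between -3.74 and -1.82 at day 7 and between -3.79 and -2.57 at day 21.

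Mgp was among the brightest probes of each array, above at least 99.9% of all probes. Its signal was 64331 intensity units in the uninjured artery, 119480 units at day 7 and 205542 units at day 21, an order that the 75th percentiles of the arrays share (127, 230 and 384 units over the shared probes). After scaling the 3 values lay close together, at 8.99 uninjured, 9.02 at day 7 and 9.07 at day 21. The log2 ratio against uninjured was 0.03 ± 0.13 at day 7 and 0.23 ± 0.13 at day 21. Under the other ways of processing it ran between -1.19 and 1.23 at day 7 and between 0.08 and 1.23 at day 21, so neither a difference nor its absence is shown for Mgp at day 7. In the authors' deposited table Mgp had the same log2 value, 17.5847, at day 7 and at day 21, and stood at 16.4 in the uninjured artery. The deposited values gave the upper end of the Mgp range, 1.23, at both times.

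Tnfrsf11b was lower in both injured arteries than in the uninjured one, more so at day 7. Its probe gave 2438 intensity units in the uninjured artery, 551 units at day 7 and 2001 units at day 21. Scaled, it was 8.03-fold lower at day 7 than in the uninjured artery (log2 ratio -3.00 ± 0.12) and 3.33-fold lower at day 21 (-1.73 ± 0.13). A lower ratio was found for 0.687% of all genes measured at day 7. Under the other ways of processing the log2 ratio lay between -4.22 and -2.65 at day 7 and between -1.88 and -1.08 at day 21. Without any scaling, an alternative added after the data were seen, it was -2.14 at day 7 and -0.28 at day 21.

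The bone matrix genes Bglap and Ibsp were dim. Bglap gave 22.6 intensity units in the uninjured artery, 120 units at day 7 and 33.7 units at day 21, between 2.71 and 11.6 times the lowest signal well above background on the same array. The day 7 artery was high and the others were low. Scaled, Bglap was 2.94-fold higher at day 7 than in the uninjured artery (log2 ratio 1.55 ± 0.21) and 1.83-fold lower at day 21 (-0.87 ± 0.25). Its log2 ratio at day 7 ran down to 0.33 under the other ways of processing and passed 2-fold in 7 of 10. Bglap has 1 probe with 1 spot on each array, so the settings on probe choice, dim probes and flagged spots left it at 1.55. The ratio was under 2-fold in the deposited table (0.94), with normexp background correction (0.66) and with each design's full probe set for scaling (0.33). At day 21 it lay between -1.02 and -0.39 under the other ways of processing and was 0.58 without scaling.

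Ibsp gave 45.7 intensity units in the uninjured artery, 34.5 units at day 7 and 44.5 units at day 21, between 3.32 and 5.50 times the lowest signal well above background. Before scaling the 3 arrays were thus nearly level, and the log2 ratio of day 21 to uninjured was -0.04. Scaled, Ibsp was 2.41-fold lower at day 7 than in the uninjured artery (log2 ratio -1.27 ± 0.60) and 2.80-fold lower at day 21 (-1.49 ± 0.22). Under the other ways of processing its log2 ratio lay between -2.83 and -0.64 at day 7 and between -1.73 and -0.95 at day 21, with the values nearest to 0, both under 2-fold, from normexp background correction.

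**Figure D2:**
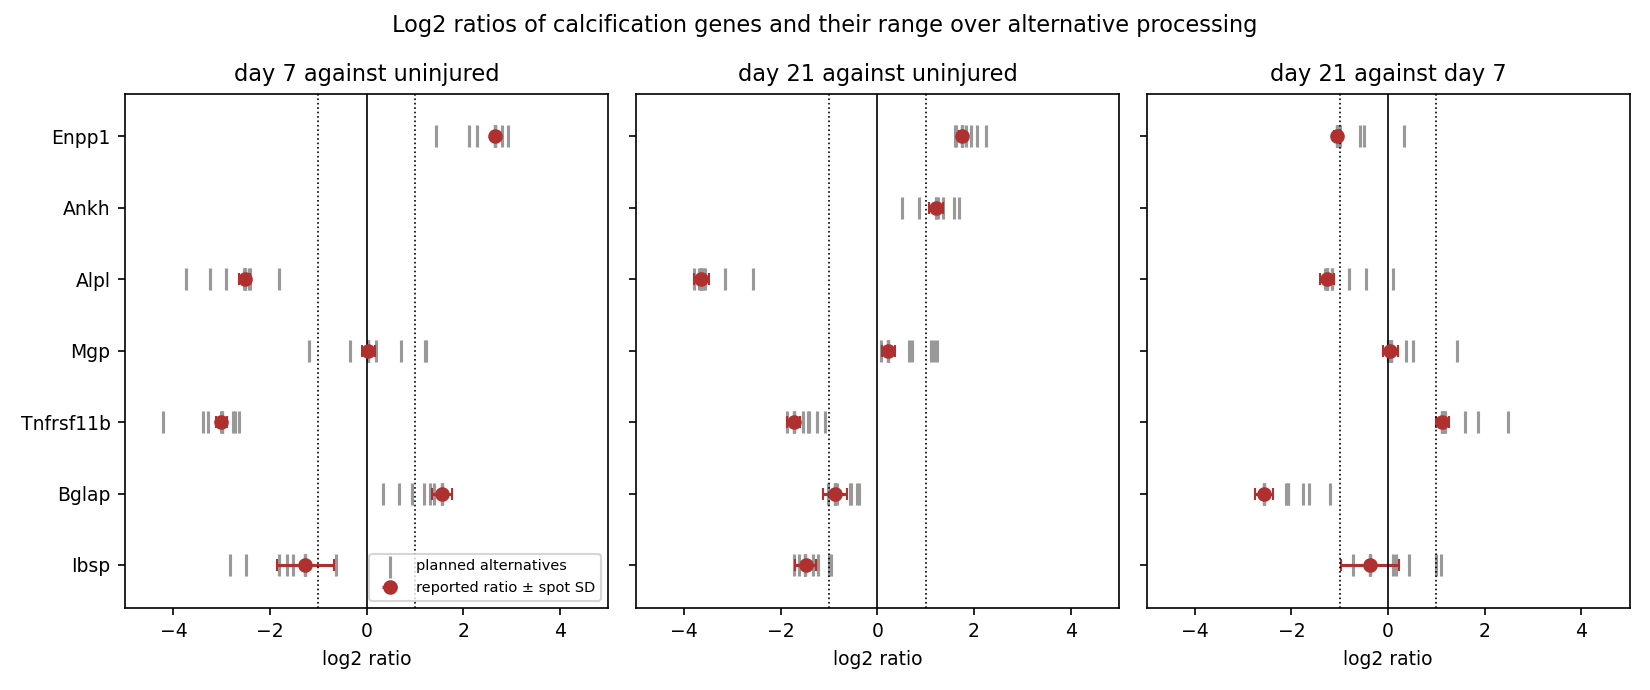
Log2 ratio of each matched gene (horizontal axis) in the 3 comparisons, with points for the reported ratio and bars for its technical SD. Only the bars of Enpp1 come from spots of its own probe, and the others from replicated probes of similar signal. Dotted lines mark 2-fold, and grey ticks are the 10 other ways of processing (no unscaled values). In these, Enpp1, Alpl and Tnfrsf11b kept their side of the 2-fold lines in both comparisons with the uninjured artery, Mgp spread between -1.19 and 1.23 at day 7, and Enpp1, Alpl and Ibsp reached both signs when day 21 was set against day 7.

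Between the injured arteries, 1 of 6 genes was at least 2-fold higher at day 21 than at day 7, against 10.7% of 5634 genes, and 3 were at least 2-fold lower, against 19.9%. The higher gene was Tnfrsf11b, with a scaled signal of 2.38 at day 21 and 1.26 at day 7 (log2 ratio 1.12 ± 0.14). Bglap was 5.94-fold lower at day 21 than at day 7 (-2.57 ± 0.20) and lay between -2.57 and -1.20 under the other ways of processing. Alpl (-1.26 ± 0.15) and Enpp1 (-1.05 ± 0.07) were also lower at day 21, but their ratios were 0.11 and 0.32 when the percentile was taken over each design's full set of probes. Ibsp was at -0.37 ± 0.60 and Mgp at 0.05 ± 0.15. On the probes of all 3 arrays, day 21 against uninjured had 1 of 6 genes at least 2-fold higher, against 9.05% of 5479 genes, and 4 at least 2-fold lower, against 17.2%. The fourth was Bglap, at -1.02.

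The genes most like each of these were sought by the distance between pairs of log2 ratios (day 7 and day 21, each against uninjured), among 5165 genes well above background on all 3 arrays. Nearest to Tnfrsf11b were the prostacyclin synthase gene Ptgis (distance 0.11) and the insulin receptor substrate gene Irs2 (0.18). Nearest to Alpl were Arpp21 (0.25) and the insulin-responsive glucose transporter gene Slc2a4 (0.33). Enpp1 had C9h6orf141 (0.10) and the mitotic kinesin gene Kif23 (0.24), and Bglap had Otop1 (0.11) and the potassium channel gene Kcna5 (0.13). Ibsp had Fxyd7 and the calponin gene Cnn3 (both 0.07). Mgp had Nthl1 (0.01) and Lrrc20 (0.03), with 146 genes within 0.2. Each pattern rests on 3 arrays.

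Other genes of mineralisation were described by 6 lists, each to be read against the same shares over all genes measured. At day 7 these were 16.1% at least 2-fold higher and 16.3% lower, and at day 21 9.11% higher and 13.7% lower. Several of the list counts lie near these shares. Among 21 genes of phosphate, pyrophosphate and mineral inhibition, 0 of 10 measured stood at least 2-fold higher at day 7 and 2 were lower (median log2 ratio -0.23), and at day 21 2 of 18 were higher and 2 lower (median -0.19). The median under the other ways of processing lay between -1.45 and -0.18 at day 7 and between -0.52 and 0.29 at day 21. Nt5e is the ectonucleotidase CD73, which turns AMP into adenosine and phosphate. It had 236 intensity units at day 21 and 42.3 units in the uninjured artery (log2 ratio 1.03 ± 0.19), close to the 2-fold line. Scaled on the probes of all 3 arrays, 1 of 12 genes was at least 2-fold higher at day 21, against 9.05% of all genes. The highest ratio of the list was then 1.13. Gas6, a vitamin K-dependent ligand, was at 1.28 ± 0.13 at day 21. Entpd1, which removes phosphate from ATP and ADP, was at -1.49 ± 0.19 at day 21, and the neutral sphingomyelinase gene Smpd3 at -2.09 ± 0.17. At day 7 the lower genes were Klf4, a transcription factor (-2.98 ± 0.12), and Vkorc1, the enzyme that recycles vitamin K (-1.06 ± 0.13). The phosphate carrier gene Slc20a1, named after its values were seen, was at -0.25 ± 0.13 at day 7 and 0.06 ± 0.16 at day 21.

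Of 17 bone and cartilage transcription factors, 3 of 8 measured stood at least 2-fold higher at day 7 and 1 was lower (median log2 ratio 0.94), and at day 21 3 of 11 were higher and 2 lower (median -0.37). Cbfb, the partner subunit of the RUNX proteins, had 72.5 intensity units at day 7, 99.8 units at day 21 and 13.5 units in the uninjured artery, with log2 ratios of 1.56 ± 0.34 at day 7 and 1.43 ± 0.31 at day 21, where its dimmer probe gave 0.75, under 2-fold. Runx1, a RUNX protein best known in blood cells, was at 2.27 ± 0.18 at day 21. Trps1 was at 2.15 ± 0.28 at day 21, where its dimmer probe gave 1.06. The brighter Trps1 probe had 15.7 units in the uninjured artery. The homeobox gene Dlx5 was at 1.16 ± 0.17 at day 7. Atf4, which osteoblasts need for their late differentiation in mice, was lower at both times, at -1.97 ± 0.09 at day 7 and -1.21 ± 0.13 at day 21. Under the other ways of processing the median lay between -0.28 and 0.94 at day 7 and between -0.37 and 0.21 at day 21, so its sign turned at both times.

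Bone matrix genes other than Bglap and Ibsp differed in both directions. At day 7, 3 of 5 measured were at least 2-fold higher and 0 lower (median log2 ratio 1.26, or 0.04 at the lowest alternative), and at day 21 1 of 8 was higher and 3 lower (median -0.75, or 1.14 at the highest). Spp1, osteopontin, had 26873 intensity units at day 7, 43798 units at day 21 and 2090 units in the uninjured artery, with log2 ratios of 2.82 ± 0.05 at day 7 and 2.94 ± 0.02 at day 21. Dmp1, a phosphoprotein of osteocytes, had 967 units at day 21 and 1894 units in the uninjured artery (-2.42 ± 0.14), and Omd, osteomodulin, was at -2.14 ± 0.13. Tnn, tenascin-N, which the uninjured array did not show well above background, was higher by at least 7.66-fold at day 7 and by at least 2.69-fold at day 21. Col1a1, the main collagen of bone and scar, was at 1.26 ± 0.13 at day 7, and at day 21 at -0.80 ± 0.13 on its brightest probe. The probe used at day 7 gave 0.02 at day 21 on the same scaling. Scaled on the probes of all 3 arrays, it gave -0.12 ± 0.13.

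Of 23 cartilage matrix genes, 1 of 7 measured was at least 2-fold higher at day 7 and 0 lower (median log2 ratio 0.64), and at day 21 2 of 13 were higher and 0 lower (median -0.09). Its median reached both signs under the other ways of processing, between -0.58 and 0.73 at day 7 and between -0.25 and 0.54 at day 21. Comp, cartilage oligomeric matrix protein, had 1560 intensity units at day 7, 2960 units at day 21 and 101 units in the uninjured artery, with log2 ratios of 3.09 ± 0.16 at day 7 and 3.43 ± 0.16 at day 21. Prg4, lubricin, was at 2.06 ± 0.19 at day 21. Acan, aggrecan, had 125 units at day 7 and 6.75 units in the uninjured artery, the second of these too dim to count as measured, a difference of at least 8.23-fold. At day 21 against day 7, 2 of 9 measured were at least 2-fold higher, against 10.7% of all genes, and 3 lower, against 19.9%. The lower ones were Acan (-2.30 ± 0.19), Epyc (-1.59 ± 0.14) and Col9a1 (-1.58 ± 0.16). The higher ones were Prg4 (1.21 ± 0.16) and Cytl1 (1.06 ± 0.13, and 0.13 on its dimmer probe). Cnmd, chondromodulin, was at least 8.31-fold lower. The list median there was -0.57, between -0.63 and 0.82 under the other ways of processing.

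Of 18 osteoclast and RANK ligand genes, 2 of 6 measured stood at least 2-fold higher at day 7 and 0 lower (median log2 ratio 0.45, between -0.77 and 1.98 under the other ways of processing), and at day 21 4 of 7 were higher and 2 lower (median 1.20, between 0.72 and 1.67 under the other ways of processing). Acp5, tartrate-resistant acid phosphatase, had 1718 intensity units at day 7, 6546 units at day 21 and 184 units in the uninjured artery, with log2 ratios of 2.36 ± 0.12 at day 7 and 3.70 ± 0.15 at day 21. Ctsk, the collagen-degrading cathepsin K, was at 3.20 ± 0.16 at day 7 and 1.69 ± 0.16 at day 21. Atp6v0d2, a proton pump subunit of osteoclasts and macrophages, which the uninjured array did not show well above background, was higher by at least 2.38-fold at day 7 and by at least 18.6-fold at day 21. Csf1, a growth factor of this lineage, gave opposite signs on its 2 probes at day 21, with -1.79 ± 0.16 on the brighter one. The other lower gene at day 21 was Calcr, the calcitonin receptor gene, at -1.02 on a probe of the common design. Macrophages express many of these genes too. At day 7, all 5 macrophage markers on shared probes were higher by 2-fold or more, and all 7 on the common design at day 21. The summed scaled signal of the 5 was 35.8 at day 7, 134 at day 21 and 3.32 in the uninjured artery, and its part in the osteoclast list was not tested.

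Of 23 genes of signals that act on bone-forming cells, 3 of 11 measured stood at least 2-fold higher at day 7 and 3 lower (median log2 ratio -0.04), and at day 21 2 of 16 were higher and 4 lower (median -0.59). The median ran down to -1.26 at day 7 and lay between -0.72 and -0.11 at day 21 under the other ways of processing. Tgfb1 was at 1.88 ± 0.06 at day 7 and 1.09 ± 0.07 at day 21. Bmp2, a ligand that induces bone, was at -2.25 ± 0.92 at day 7 and -2.08 ± 0.22 at day 21, and its receptor gene Bmpr1a at -1.67 ± 0.11 at day 7 and -1.94 ± 0.15 at day 21, where its dimmer probe gave -0.78. Sostdc1, an antagonist of BMP and WNT signals, had 1118 intensity units at day 7, 19.5 units at day 21 and 113 units in the uninjured artery. It was thus high at day 7 and low at day 21, with log2 ratios of 2.44 ± 0.12 at day 7 and -3.98 ± 0.31 at day 21. Genes seen on 1 array were also set at their bounds, or at 0 where the scaled signals gave no bound. The list medians at day 21 were then -0.31 for phosphate and inhibitors, 0.00 for transcription factors and -0.70 for bone matrix. They were -0.05 for cartilage matrix, 1.44 for osteoclast genes and -0.61 for these signals. The 0.00 is the value set for Msx2, which had no bound, and not a measured ratio.

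**Figure D3:**
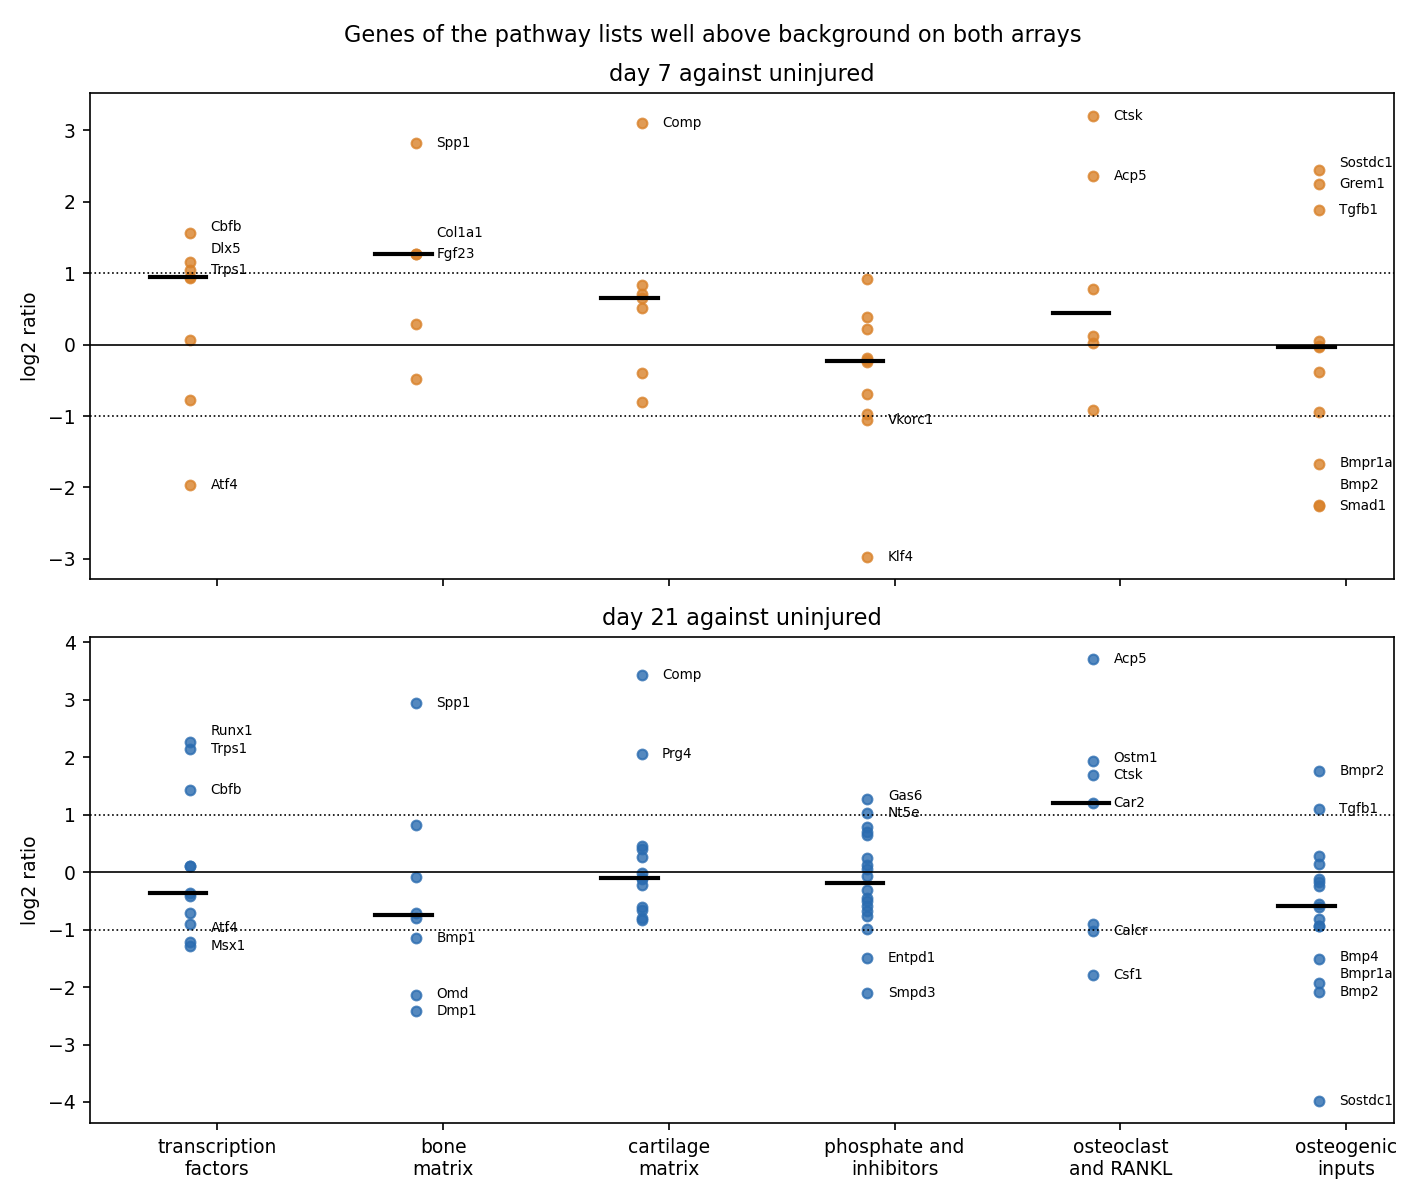
Log2 ratio (vertical axis) of the genes of 6 lists that were well above background on both arrays, at day 7 (upper panel) and day 21 (lower panel) against uninjured, 1 point per gene, with a bar at each list's median and dotted lines at 2-fold. The osteoclast and RANK ligand list had the highest median at day 21, at 1.20, and Sostdc1 lay at 2.44 at day 7 and -3.98 at day 21.

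Markers of the wall's cells differed as well. All 3 smooth muscle markers on shared probes were at least 2-fold lower at day 7 (median log2 ratio -2.20), and all 5 on the common design at day 21 (median -2.69), and each was well above background on every array that held it. Their summed scaled signal over the 3 was 36.9 at day 7, 28.2 at day 21 and 172 in the uninjured artery. The 4 Schwann cell markers on shared probes summed to 17.7 at day 7, 0.641 at day 21 and 1.12 in the uninjured artery. The 3 chondrocyte markers on shared probes summed to 1.44 at day 7, 0.344 at day 21 and 0.503 in the uninjured artery, and of these Cnmd at day 21, and Acan and Cnmd in the uninjured artery, did not stand well above background. The 3 osteoblast markers on shared probes, Col1a1, Ibsp and Bglap, summed to 304 at day 7, 116 at day 21 and 127 in the uninjured artery. With this scaling the Schwann cell, chondrocyte and osteoblast sums were all highest at day 7 and lower at day 21, as Sostdc1 was. The sums were not computed under the other ways of processing. Scaling on each design's full probe set put the median log2 ratio of all genes at -1.23 at day 7 and 1.18 for day 21 against day 7. The Col1a1 ratios, 1.26 and -1.39 in these comparisons, are of similar size, so the day 7 height of the osteoblast sum depends on the scaling. The osteoblast sum is mostly Col1a1, at a scaled log2 signal of 8.24 at day 7, against -2.74 for Ibsp and -0.94 for Bglap. Of these 3, Ibsp was lower at day 7 than in the uninjured artery (log2 ratio -1.27). The part of the marker shifts in the ratios of Enpp1, Alpl, Tnfrsf11b and Bglap was not tested.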

How the data were processed

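One-colour Agilent arrays of 3 arteries were read. The intensity values are the processed signals that Agilent Feature Extraction wrote, per the file headers in version 11.0.1.1 on the day 7 array and 10.7.3.1 on the others, which is also the version in the submitters' processing notes. The log2 values of the authors' deposited table have medians of 7.64 uninjured, 7.62 at day 7 and 7.64 at day 21. The sources used here do not give their normalization, so how they came to these near-equal medians stays unknown. Over the probes that the scanner files hold, they rose with the log2 scanner signals (Pearson r at least 0.947 for each group). Whether the scales match was not tested.

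Control and flagged spots were left out, spots of a probe averaged, and log2 signals scaled by subtracting the 75th percentile. The brightest probe stood for a gene. A gene counted as measured when well above background on both arrays, and otherwise has a bound against the lowest signal well above background. The threshold was 2-fold. Probes were named through RefSeq accessions (GRCr8), and no array coordinates were used. Normexp (limma 3.58.1, R 4.3.3, offset 50) ran on the median signal, since the files hold no mean signal. Scripts used Python 3.11.15, numpy 2.4.6 and pandas 2.3.3, and were tested on simulated data. The number of arrays, 1 a group, limits the precision.

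The members and lists were chosen with earlier results of these data known. All 9 members are described. Of each list, genes with a ratio or bound of at least 2-fold may be named, up to 6 per comparison by size, and the 2 nearest genes of each member by distance.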

Additional observations from a re-analysis of the deposited data

Results flagged for a closer look

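Bglap had log2 ratios of opposite sign in the 2 injured arteries. On the probes of all 3 arrays it was at 1.55 at day 7 and at -1.02 at day 21, each against the same uninjured array. With 1 array a group the difference was not tested.

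The day 7 array held a probe for Ankh that the older design lacks. It gave 501 intensity units, well above background, and was used in no comparison, because the other arrays have no value for it.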

How the results depend on the processing

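No paired analysis was possible because each group has 1 array, and for the same reason no replicate could be left out. Scaling moved the median log2 ratio of all genes, which was -0.01 at day 7, -0.20 at day 21 and -0.19 for day 21 against day 7. It was -0.39, 0.28 and 0.28 in the same comparisons with scaling on the median, and -1.23 at day 7 and 1.18 for day 21 against day 7 with the percentile taken over each design's full set of probes (own-design scaling). At day 7 the count of genes at least 2-fold higher was 2, 3 with quantile normalization, and 1 with normexp, own-design scaling or at 3-fold. At day 21 against uninjured it was 2, and 1 with the mean of all probes, the dimmest probe, the probes of all arrays or a 3-fold threshold. It was 3 there with quantile or cyclic loess normalization and without scaling. The count lower at day 21 was 3, and 1 without scaling, an alternative chosen after seeing the data. For day 21 against day 7 the count higher was 1, and 3 with own-design scaling, 2 in the authors' deposited table and 0 at 3-fold. The count lower was 3, 2 with quantile normalization, and 1 with median scaling, own-design scaling, the deposited table, no scaling or a 3-fold threshold. Own-design scaling reversed Alpl (0.11) and Enpp1 (0.32) in that comparison. The count lower at day 7 stayed within 1.5 times of 3 under all alternatives run. Normexp used the median signal in place of the planned mean signal. The cause of these shifts was not tested. Ankh has no probe on all 3 arrays, so scaling on those probes gave it no value, and the deposited table has it on a probe without scanner values at day 21 and uninjured and was not used for its ratio. Bglap and Ibsp lay close to background, and normexp took both under 2-fold at day 7, to 0.66 for Bglap and -0.64 for Ibsp.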

Other observations

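The authors' deposited table lists Ankh through the probe of the newer design alone, at 8.94 at day 7, 9.74 at day 21 and 8.69 in the uninjured artery on the log2 scale. The scanner files of the day 21 and uninjured arrays hold no spot of that probe. Of the 9260 entries of the table, 3957 name a probe that the older design does not hold. The difference of day 21 and uninjured in that table is 1.05. How those values were made was not tested.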
